A study of Mus musculus with 6 samples.

Results

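The genes described here are 41 named genes of glycolysis and of the response to low oxygen, chosen by symbol among the 55335 gene identifiers counted in each library. They cover glucose import, the enzymes from hexokinase to lactate dehydrogenase, lactate export, the kinases that restrain pyruvate dehydrogenase, the hypoxia-inducible factors (HIF) with their oxygen sensors, a set of HIF targets outside glycolysis, and Pck2. All 41 symbols were found in GENCODE release M21, and Aldoa is the symbol of 2 identifiers there. Its second identifier, a separate locus beside the main gene on the same strand, held 6, 9 and 14 counts in scrambled control and 13, 8 and 15 in IFNγR1KO libraries and is left out of the counts of genes.

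RNA was sequenced from 3 scrambled control and 3 IFNγR1KO cultures of B16 cells, a mouse melanoma line, named B16-BL6 in the study's methods. Scrambled control cells carry the CRISPR-Cas9 vector with a guide against GFP, and their genotype is labelled WT. IFNγR1KO cells carry the same vector with a guide against Ifngr1, the gene of the ligand-binding chain of the IFN-γ receptor. Both lines were selected with puromycin and grown out of single cells, and the clone behind the sequenced IFNγR1KO cultures is not named, so the knockout and the clone cannot be told apart. Neither the labels nor the methods name a low-oxygen or interferon treatment of the sequenced cells.

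Glycolysis turns glucose into pyruvate in the cytosol, and lactate dehydrogenase then turns pyruvate into lactate, which leaves the cell with a proton. When oxygen is scarce, the prolyl hydroxylases encoded by Egln1 and Egln3 no longer mark the HIF alpha subunits for destruction by the VHL ubiquitin ligase, and HIF bound to ARNT switches on glycolytic genes together with genes for vessel growth, pH control and mitophagy. HIF alpha is controlled mainly at the level of the protein, so its own mRNA says little about its activity, whereas the mRNAs of its targets are the usual readout. Vegfa and Pck2 are also known as targets of ATF4, the transcription factor of the integrated stress response.

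Libraries held between 6698956 and 10579788 counts on genes, fewer in every IFNγR1KO library than in any scrambled control library. Values are in CPM, counts per 1000000 counts on tested genes, after scaling for library composition (TMM), and the groups were compared with the quasi-likelihood test of edgeR, its p-values adjusted by Benjamini-Hochberg over all 13642 genes that passed a filter on low counts. Ifngr1 had a log2 fold change of -0.47 (adjusted p = 0.0729), with CPM between 14.3 and 16.7 in scrambled control and between 11.4 and 11.5 in IFNγR1KO libraries, so its groups did not overlap and the difference did not pass the test. The study screened its IFNγR1KO clones by their response to IFN-γ and checked the IFNγR1 protein by flow cytometry, which mRNA counts do not measure. The 10 melanocyte lineage markers that were listed all passed the filter on low counts, 1 of them, Kit, was lower, and their summed level was 33124 to 36039 CPM in scrambled control and 28980 to 33849 CPM in IFNγR1KO libraries. Of 12 markers of other cell types, 9 had at most 3 counts in every library, and the endothelial marker Cdh5 and the T cell marker Cd3e were at 0 throughout. The other 3, Lyz2, Csf1r and Pdgfra, passed the filter on low counts. They had 21 to 65, 42 to 96 and 13 to 38 counts per library. The sum of all 12 was 16.5 to 18.7 CPM in scrambled control and 13.1 to 13.8 CPM in IFNγR1KO libraries. Scrambled control 3 and IFNγR1KO 12 stood apart from the other libraries of their groups: the chi-square per degree of freedom over genes was 20.4 and 22.7 for the pairs with scrambled control 3 against 9.25 for the remaining pair, and up to 18.4 for the pairs with IFNγR1KO 12 against 2.62. Of the 40 members tested, 36 deviated in the same direction in both of these libraries, where 78.2% of all tested genes did so. The counts of members, glycolytic enzymes and HIF targets called are therefore also given without these 2 libraries.

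Of the 41 members, 40 passed the filter on low counts, and 8 of these (20.0%) had an adjusted p under 0.05, where the share over all tested genes was 15.3%. Pck2, Vegfa, Eno2 and Pdk1 rose and Pgam1, Slc16a1, Adm and Egln3 fell in IFNγR1KO cells. Higher calls made up 7.73% and lower calls 7.62% of all tested genes. With the study's further limit of 1 on the absolute log2 fold change, Pck2 was the only member among the differentially expressed genes (DEGs), which were 5.2% of all tested genes and 3.25% on the higher side. The median log2 fold change was 0.03 over the members and -0.0015 over all tested genes. DESeq2's Wald test called the same 8 members and also Pkm. The groups did not overlap for 15 members, against 32.6% of all tested genes. Without scrambled control 2, IFNγR1KO 10 or IFNγR1KO 11, 4, 4 and 3 members were called, where 7.93%, 7.78% and 7.32% of all tested genes were, and without IFNγR1KO 12 there were 14 (20.0% of all tested genes).

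**Figure D1:**
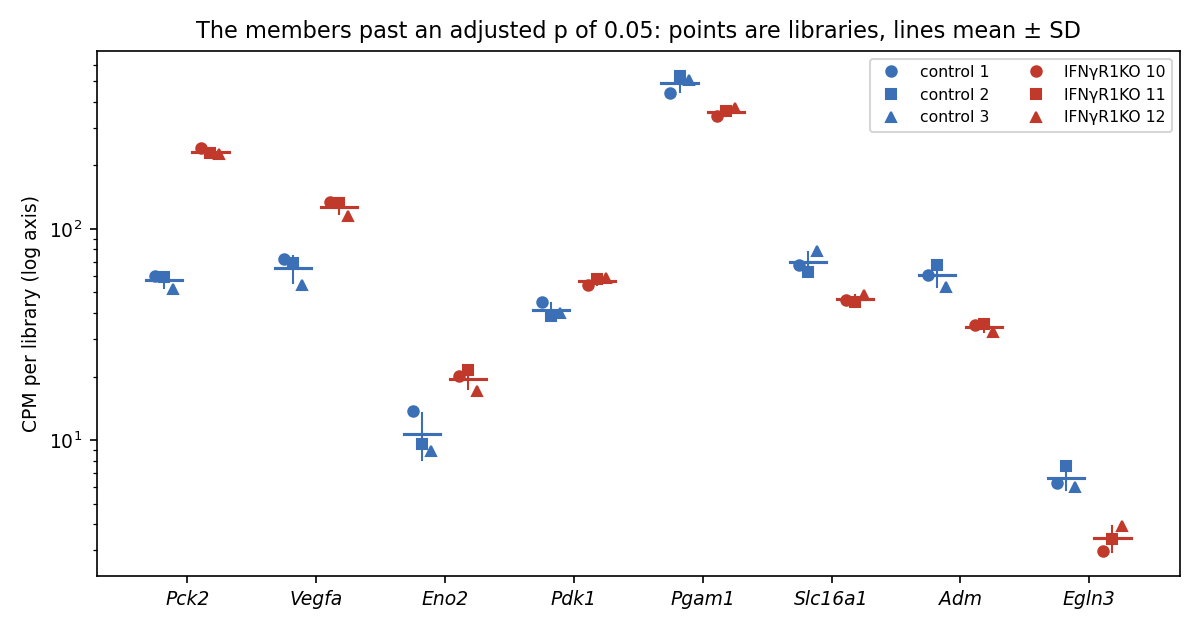
CPM of the 8 members past an adjusted p of 0.05, on a log axis, with 3 scrambled control (blue) and 3 IFNγR1KO libraries (red) per gene and lines for the mean ± SD. Pck2 lies between 226 and 241 CPM in IFNγR1KO against at most 59.6 CPM in scrambled control, the widest gap of the 8.

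Pck2 (ENSMUSG00000040618.7, chromosome 14 of GRCm38, from 55540266 to 55551242, plus strand) encodes the mitochondrial phosphoenolpyruvate carboxykinase, which makes phosphoenolpyruvate from oxaloacetate and so feeds the lower part of the glycolytic chain from the mitochondrial side. It stood at 59.6, 59.3 and 52.1 CPM in scrambled control and at 241, 228 and 226 CPM in IFNγR1KO libraries. Every IFNγR1KO library was thus far above every scrambled control library, and the spread within each group was small. In RNA from whole cultures, a change in every cell and a change in the number of cells with the transcript cannot be told apart. On the log2 scale the difference was 2.02 ± 0.13 (SE, adjusted p = 1.85e-06), a 4.07-fold higher level. It ran from 1.96 to 2.06 when single libraries were left out and was called in all 6 of these fits. Per kilobase of exon, Pck2 went from 7.30 ± 0.545 to 29.7 ± 1.05 CPM (SD, n = 3), from near the level of Pfkp to above that of Hk2. The cytosolic enzyme of the same reaction, Pck1, had at most 1 count in any library.

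Vegfa (ENSMUSG00000023951.17, chromosome 17, 46016993 to 46032369, minus strand) encodes the growth factor that drives the sprouting of blood vessels. Its level was 71.9, 68.8 and 54.4 CPM in scrambled control and 134, 132 and 116 CPM in IFNγR1KO libraries. No library of one group reached the range of the other. On the log2 scale the difference was 0.97 ± 0.15 (SE, adjusted p = 0.00109), just under the limit of 1 that the study set for DEGs. It ran from 0.85 to 1.04 when single libraries were left out, with adjusted p between 3.32e-05 and 0.0116.

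Targets of HIF went both ways. Among the 8 HIF targets outside glycolysis, which here include Vegfa and Egln3, 1 rose (Vegfa), 2 fell and 5 did not pass the test. Pdk1 (called higher) and Slc16a3 (not called) are HIF-responsive too but are counted under other roles, not among these 8. The median log2 fold change of the 8 was 0.34. The 3 called are 37.5% of the 8, beside 15.3% of all tested genes. The summed level of all 8 was 485 to 587 CPM in scrambled control and 588 to 720 CPM in IFNγR1KO libraries, so the sums just missed overlapping. These sums include Vegfa, at 54.4 to 71.9 CPM against 116 to 134 CPM, and their gap was narrower than that of Vegfa alone. Adm (ENSMUSG00000030790.15, chromosome 7, 110627661 to 110629820), the gene of the vasodilator peptide adrenomedullin and a common marker of HIF activity, had 60.4, 67.2 and 53.1 CPM in scrambled control against 35.2, 35.6 and 32.3 CPM in IFNγR1KO libraries. All IFNγR1KO libraries lay below all scrambled control libraries. Its log2 fold change was -0.81 ± 0.14 (SE, adjusted p = 0.00242), and it was called in all 6 fits with a library left out. Egln3 (ENSMUSG00000035105.5, chromosome 12, 54178981 to 54203860), an oxygen sensor that HIF itself induces, fell from 6.30, 7.56 and 5.99 CPM to 2.98, 3.39 and 3.94 CPM. Its log2 fold change was -0.94 ± 0.24 (SE, adjusted p = 0.0181). The call was lost without scrambled control 2, IFNγR1KO 10 or IFNγR1KO 11, at adjusted p of 0.0745, 0.0865 and 0.0807.

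The targets Ndrg1, P4ha1, Car9 and Bnip3l had estimates above 0 that did not pass the test on all 6 libraries. Ndrg1, a stress-responsive gene, had 44.5, 54.1 and 62.2 CPM in the control libraries against 70.5, 66.5 and 91.0 CPM, a log2 fold change of 0.50 (adjusted p = 0.0596), and was called without scrambled control 3 (0.62, adjusted p = 0.0221). P4ha1, a subunit of the enzyme that hydroxylates collagen prolines, had a log2 fold change of 0.37 with little spread, from 86.5 to 92.8 CPM in scrambled control and from 111 to 119 CPM in IFNγR1KO libraries (adjusted p = 0.0656). Car9, the cell-surface carbonic anhydrase that is among the most specific HIF targets, was low, at 4.99, 3.58 and 3.09 CPM against 6.54, 6.37 and 5.34 CPM (log2 fold change 0.65, adjusted p = 0.0999). These 3 genes did not overlap between the groups, which was so for 32.6% of all tested genes. Their unadjusted p in the edgeR test, 0.01, 0.0117 and 0.022, did not pass after adjustment. Bnip3l, a mitophagy receptor, had a log2 fold change of 0.32 (adjusted p = 0.256), and was called without IFNγR1KO 12 (0.48, adjusted p = 0.035). Its relative Bnip3 had one of 0.15 (95% interval from -0.31 to 0.60, adjusted p = 0.703). Both were lowest in the libraries that stood apart, where Bnip3 had 98.8 CPM (scrambled control 3) and 99.1 CPM (IFNγR1KO 12) against 132 to 168 CPM elsewhere. Exons on the other strand cover 22.3% of the exonic bases of Bnip3, 9.29% of those of Car9 and 8.43% of those of Ndrg1, and the strand setting of the counting is not given in the sources used here.

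Of the 6 genes of the HIF machinery itself 1 was called, Egln3, which is 16.7% beside 15.3% of all tested genes. Hif1a, the main alpha subunit, ranged from 141 to 194 CPM over scrambled control libraries, and the IFNγR1KO libraries, at 167, 154 and 184 CPM, lay inside that range (log2 fold change 0.04, 95% interval from -0.29 to 0.37). Its partner Arnt had a log2 fold change of 0.01 (95% interval from -0.29 to 0.32), and Vhl, the substrate receptor of the ligase, one of 0.13 (95% interval from -0.24 to 0.50). Epas1, which encodes the second alpha subunit, was scarce, with 3.80, 4.08 and 5.12 CPM in scrambled control and 1.28, 2.03 and 3.09 CPM in IFNγR1KO libraries. The groups did not overlap, but the log2 fold change of -1.02 ± 0.32 (SE) missed the threshold with an adjusted p of 0.0508. It was called without IFNγR1KO 12, at an adjusted p of 0.00918, and its share of the 2 alpha subunits per kilobase of exon was 2.73% ± 0.22 in scrambled control and 1.31% ± 0.47 in IFNγR1KO cells (SD, n = 3). Egln1, the principal oxygen sensor, had a log2 fold change of -0.47 (adjusted p = 0.0835) and was called without IFNγR1KO 12 (adjusted p = 0.00975).

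**Figure D2:**
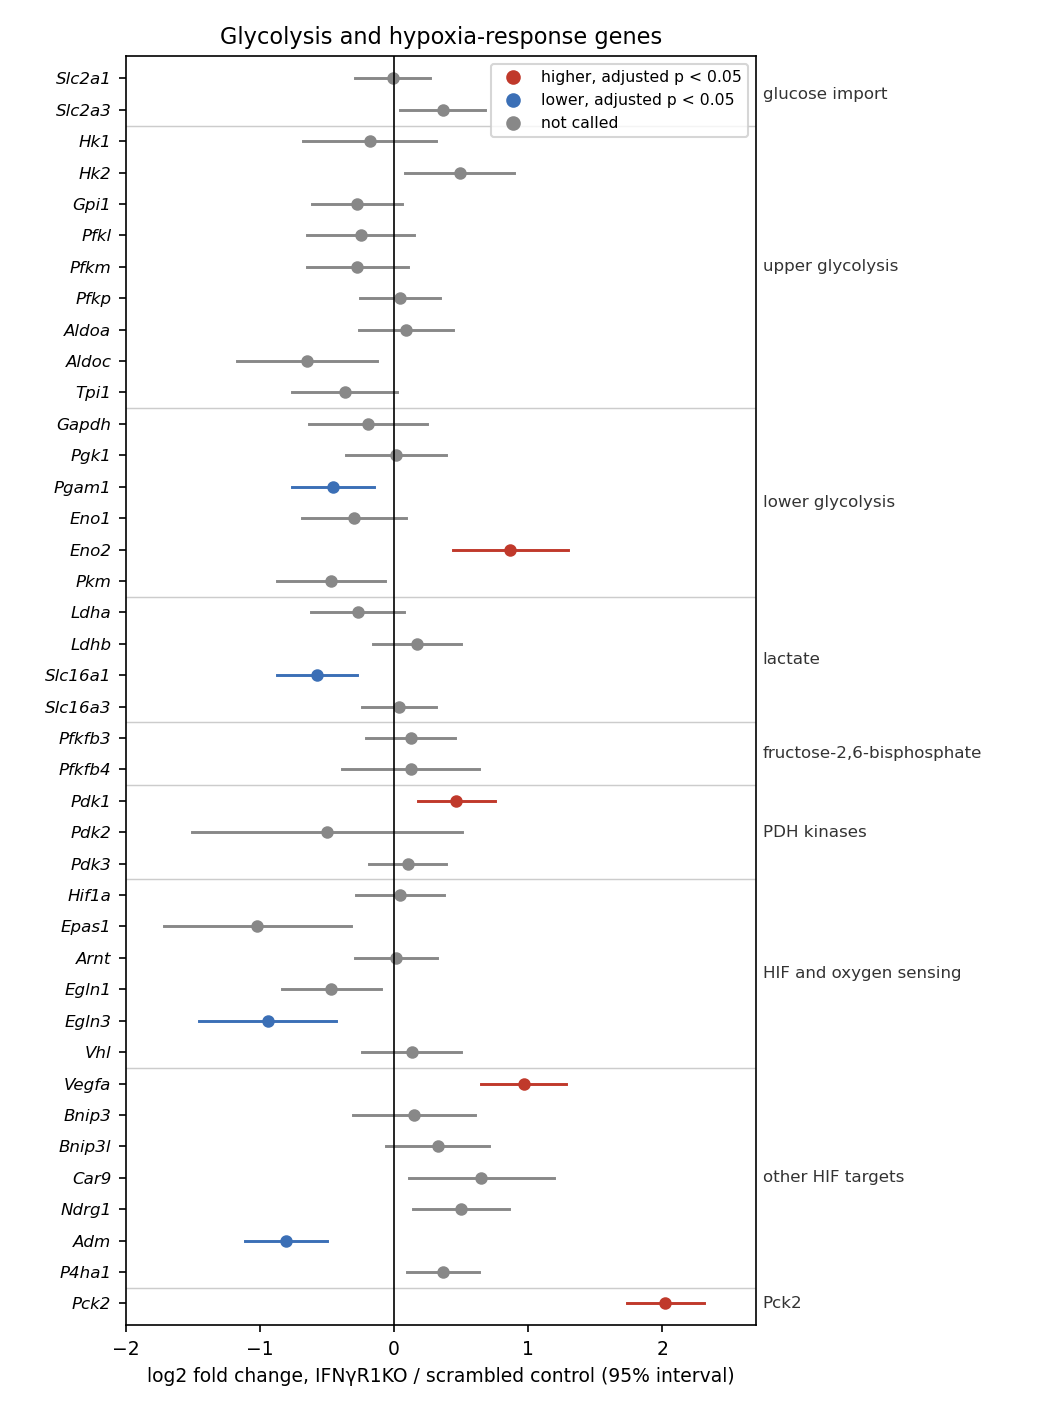
Log2 fold change of the 40 tested members, IFNγR1KO over scrambled control, with 95% intervals, grouped by role from glucose import at the top to Pck2 at the bottom. Red points are higher and blue points lower at an adjusted p under 0.05, and Pck2 lies at 2.02 while all other points lie between -1.02 and 0.97.

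On all 6 libraries, the enzymes of glycolysis itself were called at a share near that of all tested genes. Together the 17 enzymes from hexokinase to lactate dehydrogenase summed to 21017, 26714 and 24785 CPM in scrambled control and 20066, 20141 and 22862 CPM in IFNγR1KO libraries, and these ranges overlapped. Of the 17, 1 rose, 1 fell and 15 did not pass the test. A called share of 11.8% stands beside 15.3% over all tested genes, and the median log2 fold change of the 17 was -0.25 with 11 estimates below 0. Without scrambled control 3 and IFNγR1KO 12, 2 rose and 5 fell, where 22.3% of all tested genes were called.

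Glucose enters cells through transporters of the GLUT family. Slc2a1, the gene of the basal transporter GLUT1, had 78.6, 89.9 and 80.3 CPM in scrambled control against 82.4, 78.3 and 86.5 CPM in IFNγR1KO libraries, with a log2 fold change of -0.01 (95% interval from -0.29 to 0.27). Slc2a3, the gene of the high-affinity GLUT3, was at 27.0, 22.9 and 28.3 CPM against 31.3, 33.9 and 35.4 CPM. Its groups did not overlap, and the log2 fold change of 0.36 had an adjusted p of 0.118. Hexokinase traps glucose in the cell as glucose-6-phosphate. Hk2, the inducible form, had 87.1, 83.3 and 127 CPM in scrambled control against 123, 124 and 170 CPM in IFNγR1KO libraries (log2 fold change 0.49, adjusted p = 0.0996). Hk1, the housekeeping form, ranged from 145 to 233 CPM and from 119 to 230 CPM (log2 fold change -0.18, adjusted p = 0.656). Neither passed the test on all 6 libraries, and both were highest in the library of each group that stood apart. Without scrambled control 3, Hk2 was called (log2 fold change 0.71, adjusted p = 0.00988).

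From Gpi1 to Tpi1 the genes in the middle of the chain missed the threshold on all 6 libraries with edgeR after the filter and with DESeq2, and 1 of them, Aldoc, had an unadjusted p under 0.05. Gpi1, which isomerizes glucose-6-phosphate, had a log2 fold change of -0.27 (adjusted p = 0.269). The genes of phosphofructokinase, the main control point of the pathway, gave -0.25 for Pfkl, -0.27 for Pfkm and 0.04 for Pfkp, with adjusted p between 0.331 and 0.879. Without IFNγR1KO 12, Pfkl (log2 fold change -0.47, adjusted p = 0.0442) and Pfkm (-0.47, adjusted p = 0.0465) were called lower. Pfkfb3 and Pfkfb4, whose products make its activator fructose-2,6-bisphosphate, both had a log2 fold change of 0.12 (adjusted p of 0.65 and 0.784). Aldoa, the dominant aldolase, averaged 2551 ± 292 CPM in scrambled control against 2718 ± 108 CPM in IFNγR1KO cells (SD, n = 3; adjusted p = 0.764). Aldoc, the brain form, had 93 to 109 counts in scrambled control and 30 to 60 counts in IFNγR1KO libraries, a log2 fold change of -0.65 (adjusted p = 0.0904), and was called without the filter on low counts (adjusted p = 0.0294). Tpi1, which interconverts the triose phosphates, had one of -0.37 (adjusted p = 0.196).

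In the lower part of the chain, Pgam1 and Eno2 were called. Pgam1 (ENSMUSG00000011752.7, chromosome 19, 41911923 to 41918660) encodes phosphoglycerate mutase and fell from 440, 528 and 508 CPM to 341, 361 and 375 CPM, which is -0.46 ± 0.14 on the log2 scale (SE, adjusted p = 0.0459). The groups were separate, but the call was close to the threshold. It was lost without scrambled control 2 or 3 (adjusted p of 0.138 and 0.0973), without IFNγR1KO 10 or 11 (0.19 and 0.181), after thinning all libraries to the size of the smallest, and with scaling by library totals only (0.0754). Eno2 (ENSMUSG00000004267.16, chromosome 6, 124760053 to 124769673), the enolase named for neurons, rose from 13.8, 9.55 and 8.89 CPM to 20.0, 21.4 and 17.2 CPM. Its log2 fold change was 0.87 ± 0.20 (SE, adjusted p = 0.0116), and the call was lost without scrambled control 2 (adjusted p = 0.0669) and without IFNγR1KO 11 (adjusted p = 0.0616). Eno2 was a small part of the enolase mRNA: per kilobase of exon it made up 0.35% ± 0.14 of the sum with Eno1 in scrambled control and 0.76% ± 0.16 in IFNγR1KO cells (SD, n = 3). Eno1 itself had a log2 fold change of -0.30 (adjusted p = 0.309).

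The other genes of this stretch were not called. Gapdh, the most abundant member, had 4985, 7348 and 6563 CPM in scrambled control against 4898, 5019 and 6607 CPM in IFNγR1KO libraries (log2 fold change -0.19, adjusted p = 0.586). Its values within each group spread more than its group means differed. Pgk1 had a log2 fold change of 0.02 (95% interval from -0.35 to 0.39). Pkm, the pyruvate kinase gene, was at 2775, 3683 and 3556 CPM against 2119, 2235 and 2876 CPM (log2 fold change -0.47, adjusted p = 0.112). It was lower with DESeq2 (adjusted p = 0.0387) and without IFNγR1KO 12 (log2 fold change -0.62, adjusted p = 0.0223). A predicted gene on the same strand, Gm49759, covers 15.3% of its exonic bases. Reads that aligned to several places were set aside, between 3.76% and 4.61% per library, so the levels of enzymes with near-identical copies in the genome, such as Gapdh, are uncertain.

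At the lactate end of the pathway 1 of the 4 genes was called, with or without the libraries that stood apart, where 15.3% and 22.3% of all tested genes were. Slc16a1 (ENSMUSG00000032902.1, chromosome 3, 104638668 to 104658462), the gene of the monocarboxylate transporter MCT1, fell from 67.3, 62.3 and 78.7 CPM to 46.0, 44.8 and 48.8 CPM. All IFNγR1KO libraries lay below all scrambled control libraries, and the difference was -0.58 ± 0.14 on the log2 scale (SE, adjusted p = 0.0145). The call was lost without IFNγR1KO 10 (adjusted p = 0.0624) and without IFNγR1KO 11 (adjusted p = 0.0903). Slc16a3, the gene of MCT4, which is the exporter that HIF induces, was at 109, 123 and 120 CPM and at 115, 122 and 125 CPM, a log2 fold change of 0.04 (95% interval from -0.24 to 0.32). Ldha, the HIF-responsive lactate dehydrogenase subunit, had 2051, 2267 and 1912 CPM in scrambled control against 1858, 1784 and 1520 CPM in IFNγR1KO libraries (log2 fold change -0.27, adjusted p = 0.298). Ldhb, the heart-type subunit, had a log2 fold change of 0.17 (adjusted p = 0.505).

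Pyruvate dehydrogenase kinases inhibit pyruvate dehydrogenase in the mitochondrial matrix and so restrain the conversion of pyruvate to acetyl-CoA. Pdk1 (ENSMUSG00000006494.11, chromosome 2, 71873224 to 71903858), the HIF-responsive form, rose from 45.2, 38.6 and 40.0 CPM to 54.1, 58.0 and 58.6 CPM. Its log2 fold change was 0.46 ± 0.13 (SE, adjusted p = 0.0321). The call was kept without scrambled control 1 or IFNγR1KO 12 and lost without scrambled control 2 or 3 (adjusted p of 0.112 and 0.0752) and without IFNγR1KO 10 or 11 (0.0814 and 0.123), and it was also lost without the filter on low counts (0.0692). Pdk3, the most abundant of the 4 kinases per kilobase of exon, had a log2 fold change of 0.10 (95% interval from -0.19 to 0.39). Pdk2 had 3 to 22 counts per library (log2 fold change -0.50, adjusted p = 0.533). Pdk4 had at most 2 counts in any library and was the member that did not pass the filter.

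**Figure D3:**
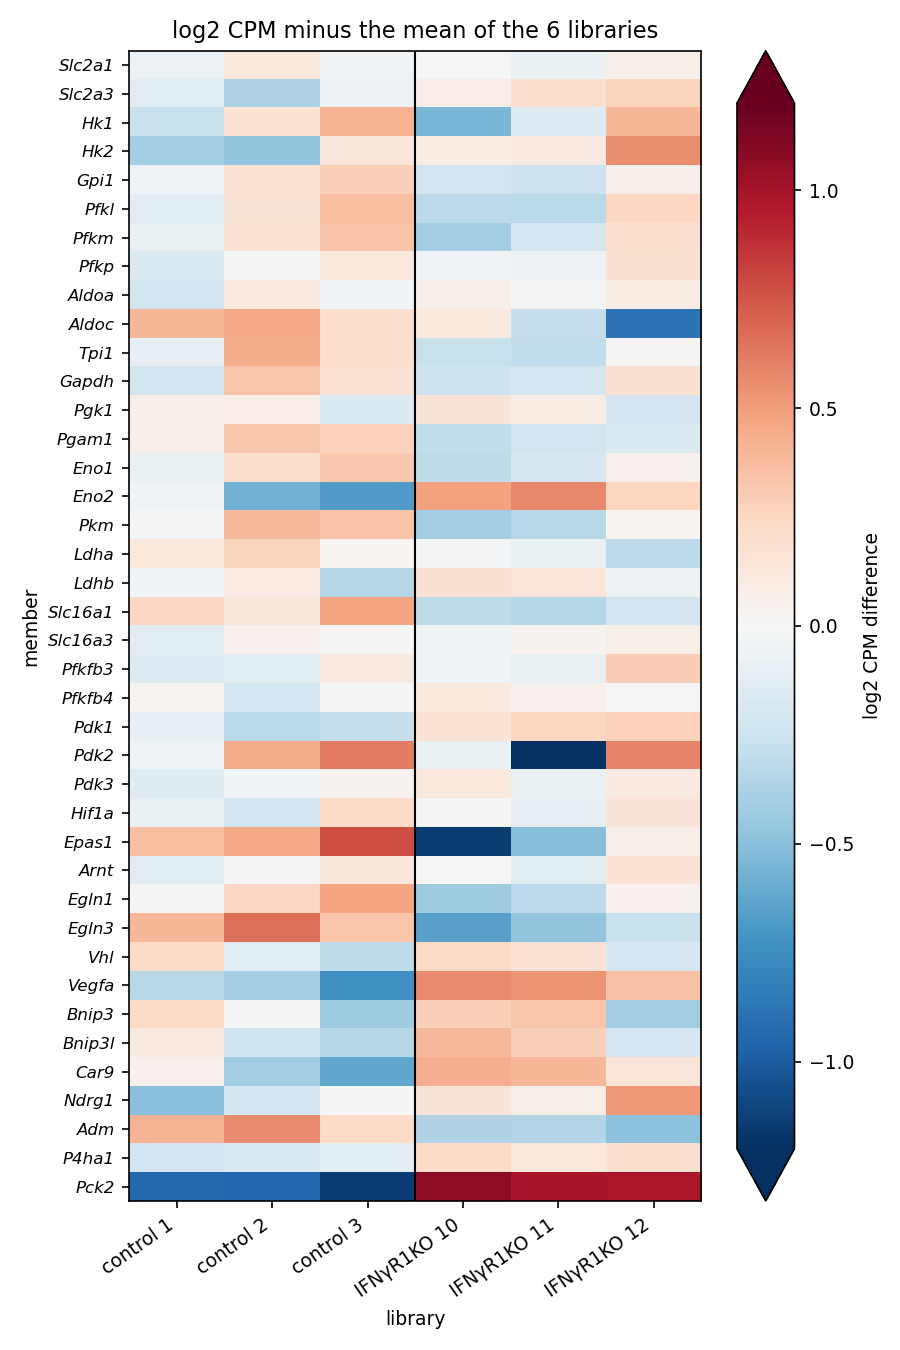
Log2(CPM + 0.1) of the 40 tested members in each library minus the member's mean over the 6 libraries, with red above and blue below that mean and scrambled control left of the black line. Pck2 and Vegfa separate the groups, while Bnip3 is low in both scrambled control 3 and IFNγR1KO 12 and Hk1 is high in both.

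Leaving out both libraries that stood apart, an alternative chosen after the data were seen that leaves 2 libraries a group, raised the number of members called from 8 to 18, while 22.3% of all tested genes were called. The 8 members of the comparison on all libraries were all among the 18. The 10 others were Hk2, Ndrg1, Bnip3l and P4ha1, which were higher, and Egln1, Epas1, Eno1, Pfkl, Pkm and Tpi1, which were lower. In this fit Hk2 had a log2 fold change of 0.54 (adjusted p = 0.00182), Pkm -0.57 (adjusted p = 0.00135) and Tpi1 -0.48 (adjusted p = 0.0118). Of the glycolytic enzymes 5 were then lower and 2 higher, and of the HIF targets 4 were higher and 2 lower. Between the 2 fits the median log2 fold change went from -0.25 to -0.31 for the enzymes and from 0.34 to 0.39 for the HIF targets. Single members moved more, and Pdk2, on 3 to 22 counts, went from -0.50 to -0.94 without being called. What sets these libraries apart is not given in the labels, and its part in the values was not tested.

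The balance between closely related enzymes was followed by the share of each gene in the summed CPM per exonic kilobase of its family. Hk2 made up 46.2%, 37.8% and 43.7% of the hexokinase sum in scrambled control and 59.5%, 53.1% and 51.4% in IFNγR1KO libraries, the smaller of the 2 shares in every control library and the larger in every IFNγR1KO library. Ldhb took 17.7%, 17.5% and 15.7% of the lactate dehydrogenase sum in scrambled control and 21.6%, 21.9% and 22.1% in IFNγR1KO libraries. Among the lactate transporters the share of Slc16a3 was 58.5% ± 3.24 in scrambled control and 68.3% ± 1.00 in IFNγR1KO cells (SD, n = 3). None of these 3 shares overlapped between the groups. Their families are among the 8, of 12 compared, whose first gene had a share that did not overlap. In larger families this depends on the gene listed first. In phosphofructokinase Pfkl overlapped, while Pfkp had 13.2% to 14.7% in scrambled control and 14.8% to 18.2% in IFNγR1KO libraries. For the CPM of single genes, a different measure, 32.6% of all tested genes did not overlap. With 3 libraries against 3 an exact two-sided permutation test can give no p below 0.1, and for these 8 the value adjusted over the 12 families was 0.15, so no share passed a threshold of 0.05.

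**Figure D4:**
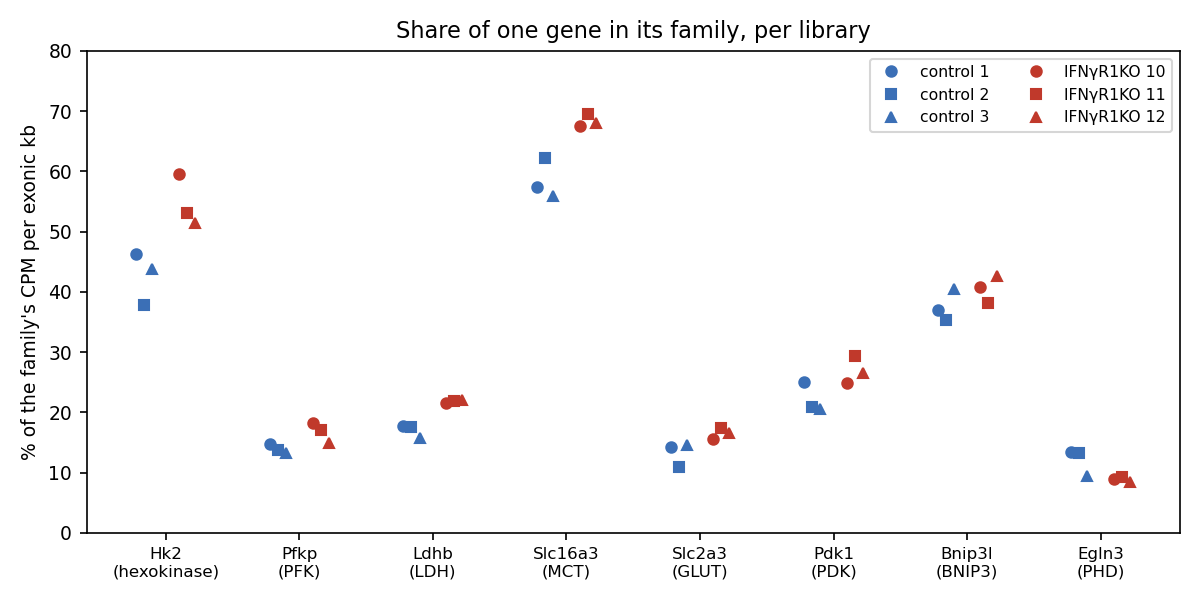
Share of 1 gene in the summed CPM per exonic kilobase of its family, in percent, for 8 families, with points for the 3 scrambled control (blue) and 3 IFNγR1KO libraries (red). Hk2 lies between 37.8% and 46.2% in scrambled control and between 51.4% and 59.5% in IFNγR1KO libraries, while Bnip3l overlaps.

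Promoters were read for the motifs of the factors named above. The letters searched on both strands were ACGTG and GCGTG, the core of the HIF site, and TGATGNAA, the core of the site bound by ATF4 with a C/EBP partner. The windows are those of RefSeq on GRCm38.p6, from 250 bases before to 50 after each start, and 37 members had at least 1. ACGTG stood in 23 of these 37 genes (62.2%), against 21.8% of 27025 genes with such windows, and GCGTG in 24 (64.9%) against 35.2%. A palindromic CACGTG counts as ACGTG on both strands and is also the site of MYC and other E-box factors. The member windows had a median GC content of 61.2% against 52.7% over all windows, and these motifs hold a CpG, so the part of base composition in the difference was not tested. Among the 8 called members ACGTG stood in 4 and GCGTG in 6.

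TGATGNAA was found in the window of 1 of the 37 members, Pck2, which is 2.7% against 4.51% of all genes. The stretch of the Pck2 promoter is shown because it holds this motif, read on the other strand and starting 103 bases before the start, next to a GCGTG at 85 bases before. Stretches of 5 called members that hold a HIF-type core are shown beside it, followed by those of Ldha and Hk2, which hold ACGTG and were not called. Capitals mark the matches, written 5′ to 3′ on the strand of each gene.
Pck2, higher, chr14:55540136-55540235, plus strand: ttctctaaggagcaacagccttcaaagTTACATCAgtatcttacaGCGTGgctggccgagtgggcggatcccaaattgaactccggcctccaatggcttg
Pdk1, higher, chr2:71873124-71873213, plus strand: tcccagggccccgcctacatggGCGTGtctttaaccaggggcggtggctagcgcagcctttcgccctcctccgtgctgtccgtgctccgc
Adm, lower, chr7:110627537-110627636, plus strand: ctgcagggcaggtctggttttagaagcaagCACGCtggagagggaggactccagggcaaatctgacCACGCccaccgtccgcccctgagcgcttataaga
Egln3, lower, chr12:54204020-54204119, minus strand: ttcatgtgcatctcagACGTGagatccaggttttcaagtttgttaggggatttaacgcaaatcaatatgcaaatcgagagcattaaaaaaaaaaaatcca
Slc16a1, lower, chr3:104638449-104638548, plus strand: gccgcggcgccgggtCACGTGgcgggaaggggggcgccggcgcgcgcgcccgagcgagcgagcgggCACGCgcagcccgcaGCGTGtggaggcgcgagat
Pgam1, lower, chr19:41911686-41911795, plus strand: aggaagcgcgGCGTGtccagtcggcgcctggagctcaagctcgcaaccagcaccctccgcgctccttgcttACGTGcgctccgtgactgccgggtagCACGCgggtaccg
Ldha, not called, chr7:46845649-46845778, plus strand: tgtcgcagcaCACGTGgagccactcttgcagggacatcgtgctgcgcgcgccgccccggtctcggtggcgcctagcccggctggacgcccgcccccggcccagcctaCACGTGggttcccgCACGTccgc
Hk2, not called, chr6:82774615-82774694, minus strand: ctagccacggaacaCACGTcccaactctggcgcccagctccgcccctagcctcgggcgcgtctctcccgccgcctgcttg

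HIF-type cores thus stood in front of genes that rose, that fell and that were not called. The window at the annotated start of Vegfa held none of the searched letters, and its matches, a GCGTG and an ACGTG, lay in the window of a second start inside the gene. Eno2 had no match. These matches are letters in short windows and say nothing of binding.

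Further genes of the same pathways, from lists written with earlier results of these data known, were read in the same fit. Whether their calls hold with libraries left out was not followed. Of 27 further glycolysis genes 17 were tested, and 2 were higher and 1 lower, a called share of 17.6% beside 15.3% of all tested genes. Slc2a6, a lysosomal glucose transporter, rose from 30.8 ± 4.48 to 62.6 ± 7.80 CPM (SD, n = 3), a log2 fold change of 1.02 (adjusted p = 0.00115). Slc2a4, the insulin-regulated transporter GLUT4, rose by 1.03 on the log2 scale at a low level, from 3.31 to 6.78 CPM (adjusted p = 0.00776). Minpp1 was the gene that fell, by 0.51. Of 15 genes of gluconeogenesis and pyruvate entry 12 were tested and 2 (16.7%) called. Pcx, which makes the oxaloacetate that Pck2 uses, rose by 0.56, close to the threshold (adjusted p = 0.0496). Me1, the cytosolic malic enzyme, fell by 0.66 (adjusted p = 0.00627). In the pentose phosphate pathway 1 of 8 tested genes (12.5%) was called, Rpia, which fell by 0.68 (adjusted p = 0.0138).

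The further HIF targets also went both ways. Of 34 genes 22 were tested, and 8 (36.4%, beside 15.3% of all tested genes) were called, 5 higher and 3 lower, with a median log2 fold change of 0.18. Hmox1, heme oxygenase, rose by 0.88 on the log2 scale (adjusted p = 0.00193), and Ero1l, the oxidase that drives disulfide bonding in the endoplasmic reticulum, by 0.80 (adjusted p = 0.00203). Both are also known to answer to stress factors other than HIF. Mxi1, a MYC antagonist, rose by 0.63 (adjusted p = 0.0133). Bhlhe40, a transcriptional repressor, fell by 0.61 (adjusted p = 0.0187), and Tfrc and Plod1 each fell by 0.50 (adjusted p of 0.0418 and 0.0423). Of 11 tested regulators of the HIF pathway 3 (27.3%) were called. Siah1a and Siah2, ubiquitin ligases that act on the prolyl hydroxylases, rose by 1.02 and 0.89 (adjusted p of 0.00192 and 0.00255). Arnt2, a relative of Arnt, had 27, 41 and 44 counts in scrambled control and 0, 3 and 0 counts in IFNγR1KO libraries, and was at least 8.81-fold lower, taking 3 counts per IFNγR1KO library as the floor (adjusted p = 0.000514).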

How the data were processed

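Total RNA was enriched by poly(A) selection and sequenced with paired ends. The deposited values are raw counts per gene, one table per library and without normalization, which the authors made with STAR (version 2.7.5a) on GRCm38 and the htseq-count program of HTSeq (version 0.11.2). The annotation release and strand setting are not given in the sources used here. Between 46.9% and 47.7% of the listed reads per library lay on no gene, and these rows were left out. Symbols, positions and exonic lengths came from GENCODE M21 (55154 of 55335 identifiers).

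Counts were tested in R (version 4.3.3) with edgeR (version 4.0.16): filterByExpr (minimum count 10, minimum total 15), TMM, and the quasi-likelihood test of 3 IFNγR1KO against 3 scrambled control libraries. DESeq2 (version 1.42.0), the study's tool in another version, was an alternative. Log2 values of single libraries are log2(CPM + 0.1). Standard errors are the estimate divided by the square root of its F statistic. Replicates are cultures seeded in parallel, so p-values measure the spread between such cultures. The tests were run on simulated counts with a common dispersion for all genes, which lack the deviation shared by the libraries that stood apart. Members, lists and tests were chosen with earlier results of these data known. All members were named, and from each further list at most 3 called genes per direction, by adjusted p. Cdh5, Cd3e, Lyz2, Csf1r, Pdgfra and Pck1 were named after their values were seen. Alternatives were other scalings, filters, thresholds, thinning to the smallest total and leaving out libraries.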

Additional observations from a re-analysis of the deposited data

How the results depend on the processing

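No paired analysis was possible because the libraries carry the replicate numbers 1, 2 and 3 in scrambled control and 10, 11 and 12 in IFNγR1KO, and share none. Over the 12 alternatives to the fit, 437 of 480 values of single members stayed on their side of the threshold, 25 newly passed it and 18 no longer passed it. Of the 437, 18 changed sign, all of members not called with at most 0.18 in size on all libraries (Slc2a1, Hk1, Pfkp, Pgk1, Slc16a3, Pfkfb3, Hif1a, Arnt and Bnip3). Pck2, Vegfa and Adm were called under all of them. The number of members called was 13 without the filter on low counts, 8 of them lower, with Hk2, Ndrg1, Aldoc, Egln1, Epas1 and Pkm added and Pdk1 lost, and the adjusted p values there cover more genes. It ran from 3 to 14 with single libraries left out (2 to 5 higher, 1 to 9 lower) and was 18 without both libraries that stood apart (8 higher, 10 lower, an alternative added after seeing the data). The number of members that were DEGs was 2 with library totals only, 2 without the filter and 2 after thinning, ran from 1 to 4 with single libraries left out, and was 3 without both libraries that stood apart. Vegfa and Epas1 lie near the limit of 1. Over all genes, testing against a log2 fold change of 1 left 134 of 710 DEGs, and leaving out single libraries gave between 1028 and 2824 genes with an adjusted p under 0.05, against 2093. The cause of these moves was not tested. Depth limits Pdk2, Pdk4, Epas1, Pfkfb4 and Car9, which had at most 53 counts in any library. Egln3, which was called, was also low, with 21, 25 and 28 counts in IFNγR1KO and 58 to 76 in scrambled control libraries.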
